A study of Mus musculus with 24 samples.

Results

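The change of m6A enrichment between the late 1-cell (L1C) and the late 2-cell (L2C) embryo of the mouse was measured in 12 of the 24 libraries of the series, 3 input and 3 immunoprecipitated (IP) libraries from each stage. The libraries were chosen by their labels alone. The quantity of interest is an interaction, the log2 ratio of IP to input at L2C minus the same ratio at L1C, so that a positive value marks an RNA more enriched by the anti-m6A antibody at L2C. L1C and L2C embryos came from superovulated B6D2F1 females mated with B6D2F1 males and were cultured in KSOM medium without any further treatment, and the labels give B6D2F1, a cross of C57BL/6J with DBA/2N, for every library. The input libraries were made from RNA of the same batches without IP. A further 6 libraries of the series are from MII oocytes (3 IP, 3 input), and 6 are from L2C embryos that received the RNA-cutting enzyme Cas13d as mRNA, either together with guide RNAs (crRNAs) for the reader gene Ythdc1 (KD) or without any guide (NC). The MII libraries entered the fit and its scaling, MII inputs and NC embryos defined RNA classes, and both experiments served as further readouts of the genes called. Each library was made from pooled RNA, and no source says that replicates came from separate collections, so p-values measure the spread between these libraries.

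m6A is written on adenosines of nascent RNA by the Mettl3-Mettl14 complex with its partners Wtap, Virma, Zc3h13, Cbll1 and Rbm15, it is removed by Fto and Alkbh5, and it is read by the YTH proteins and several other RNA-binding proteins. It is most frequent in the consensus family that includes GGACU, close to stop codons and in long internal exons. Zygotic genome activation (ZGA), whose major wave in the mouse falls in the 2-cell stage, replaces RNAs stored in the oocyte with RNAs of the embryo while the stored RNAs are cleared. A ratio of IP to input therefore compares different pools of molecules at the 2 stages. It is relative to the other RNAs of its library and is not a count of methylated sites.

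The sites below are printed to show the motif in transcripts described first. All 10 of the more enriched mRNAs with the smallest P held GGACT in the longest coding sequence. Of the 10 less enriched ones, Flvcr2, Sh3bp5l and Ccdc85c gave no site that could be printed, which does not show that the motif is absent. Each line gives 27 bases of coding sequence in the sense direction around the usable GGACT nearest to the stop codon (motif in capitals). The transcript is that with the longest coding sequence, read from GRCm38 with GENCODE M21. A match was usable if its 27 bases lay inside the coding sequence and within the same exon. The first 4 genes were more enriched at L2C and the last 4 less enriched.
Ambra1, chr2:91917549-91917575, plus strand: ccacctctcgaGGACTgccatcagaac
Lrp6, chr6:134457677-134457703, minus strand: gaccacagtgtGGACTgcagtgacaga
Jak2, chr19:29298657-29298683, plus strand: aataattgcatGGACTatgagccagat
Ogt, chrX:101673684-101673710, plus strand: gtattagcaatGGACTggcgactacac
Gata1, chrX:7962308-7962334, minus strand: cctgacgctggGGACTgcactgcctgc
Surf6, chr2:26902737-26902763, minus strand: acctatcttcaGGACTtggccaagaag
Ftsj3, chr11:106249481-106249507, minus strand: ttcaaggtagtGGACTctcggatgaag
Nop2, chr6:125144414-125144440, plus strand: ccaaggcctaaGGACTgtgctccatcc

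The sites lay 256 bases before the stop codon in Ambra1, 788 in Lrp6, 1028 in Jak2, 715 in Ogt, 789 in Gata1, 1025 in Surf6, 65 in Ftsj3 and 209 in Nop2. The motif was counted on the sense strand only. It was common in every group of genes: of the mRNAs without span overlap (defined below), GGACT was present in the longest coding sequence of 306 of the 360 with such a transcript that were called higher at L2C (85.0%), of 319 of 403 called lower (79.2%) and of 5632 of 7584 tested (74.3%). Coding sequences were longer in the first set, with medians of 1960, 1310 and 1260 bases. A match within 300 bases of the stop codon was found in 37.2%, 34.7% and 31.0%. A match is a description of the sequence and no evidence that the site is methylated.

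The authors counted reads on whole gene spans, introns included, so a read from a stretch shared by 2 genes cannot be assigned. mRNAs whose span shares at least 1 base with another annotated gene on either strand were therefore set apart. Of 21974 protein-coding genes 11867 had no such overlap. The 12 libraries held between 11107421 (L2C IP 2) and 39739950 (L2C IP 1) estimated counts, and replicate pairs differed by a chi-square per degree of freedom of 8.63 to 37.1, the largest between L2C IP 1 and 2. Known stage markers followed the labels: the summed level of 33 genes of the 2-cell programme was 2880 to 3390 CPM (counts scaled to the library size) in L2C inputs and 1830 to 2240 in L1C inputs, and that of 44 oocyte genes was 16600 to 16900 in L2C inputs and 54000 to 58200 in L1C inputs. The 2-cell sum was already 1570 to 1790 CPM in MII inputs. The summed level of 21 cumulus cell markers was 320 to 331 CPM in L2C inputs, 68.1 to 71.9 in L1C inputs, 139 to 164 in L2C IP and 75.7 to 90.2 in L1C IP libraries. None of these 21 was at 0 in all 12 libraries, and 1 had at most 3 counts in each. Most of the L2C input sum was Amhr2, at 235, 249 and 254 CPM on the scale of the fit, which the sums do not use. The part of these markers in the results was not tested.

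Enrichment changed in both directions at the L1C to L2C transition. Of 21950 genes tested, 1098 were more enriched at L2C (5.0%) and 981 less enriched (4.47%), or 9.47% in all, at an adjusted p under 0.05 (edgeR quasi-likelihood test, Benjamini-Hochberg adjustment over all genes tested). The unadjusted P was under 0.05 for 24.1% of genes. Among mRNAs without span overlap, 363 of 7674 were called higher (4.73%) and 404 lower (5.26%), 9.99% in either direction, with a median interaction of -0.04 on the log2 scale. Of these, 180 and 233 changed by more than 2-fold and 51 and 60 by more than 4-fold. The 3 L2C ratios all exceeded the 3 L1C ratios in 359 of the 363 (98.9%, against 22.8% of all tested mRNAs without span overlap). They all fell below them in 400 of the 404 (99%, against 26.0% of all tested). Each ratio sets 1 IP library against the mean of the 3 inputs of its stage, so the 3 ratios of a stage share their inputs. The mRNAs were called on these same libraries, so the separation is no separate evidence. The balance of directions depended on the scaling: fitted on the 12 libraries alone, 179 were called higher and 698 lower, and the median over all genes moved from 0.00 to -0.18. With the median interaction of mRNAs without span overlap set to 0, 405 of them were called higher and 347 lower. Leaving out L2C IP 3 gave 221 higher and 240 lower, and leaving out L1C IP 3 gave 240 and 243. Without L1C input 1 the lower count was 248, and without L2C input 2 it was 258.

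**Figure D1:**
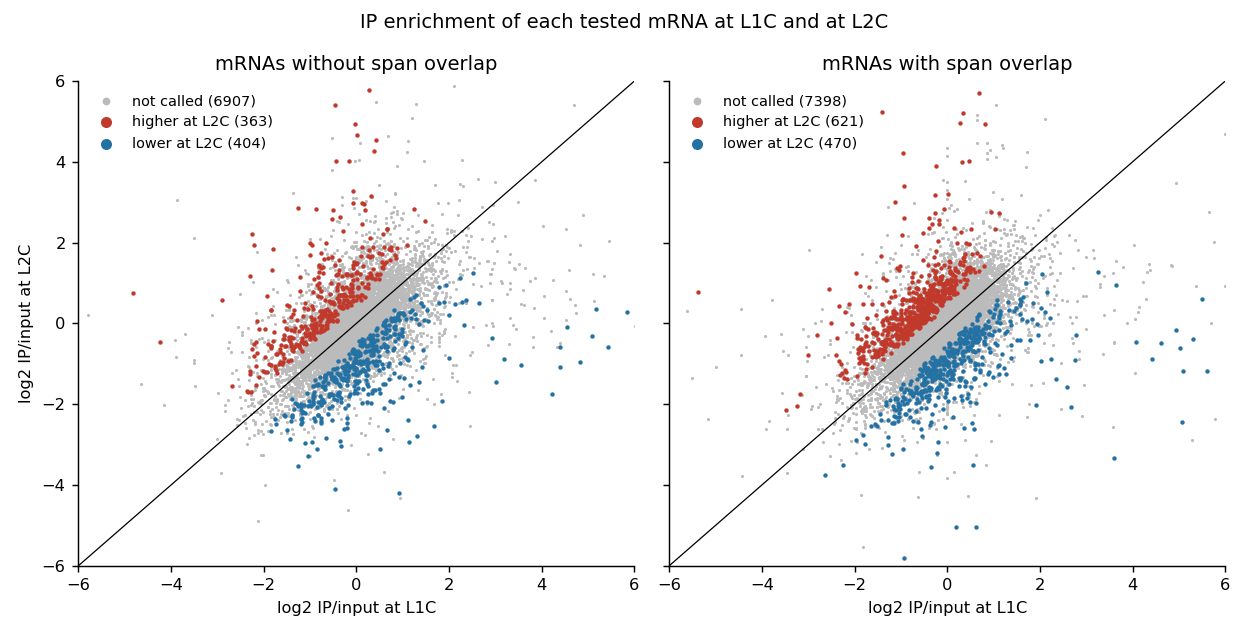
Each point is 1 tested mRNA, with the fitted log2 ratio of IP to input at L1C on the x axis and at L2C on the y axis, for mRNAs without (left) and with (right) span overlap, and the line marks equal enrichment. mRNAs called higher (red) and lower (blue) at L2C lay on both sides of no enrichment at L1C, and 11 (left) and 67 (right) mRNAs with a ratio beyond 6 on either axis are not drawn.

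Among the mRNAs more enriched at L2C, Ambra1 had the smallest P. Ambra1, a regulator of autophagy and a substrate receptor of a ubiquitin ligase, had input levels of 180, 192 and 224 CPM at L1C and 103, 102 and 103 CPM at L2C. Its IP levels were 43.0, 46.1 and 44.8 CPM at L1C and 111, 103 and 109 CPM at L2C. The input thus decreased while the IP increased, with no overlap between stages in either. The ratio moved from depletion at L1C (log2 -2.15) to about equal IP and input at L2C (0.06), an interaction of 2.22 (SE 0.17, edgeR adjusted p = 4.3e-07).

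Lrp6, a co-receptor for Wnt ligands, behaved differently because both sides were lower at L2C. Input levels were 113, 98.5 and 112 CPM at L1C and 17.6, 18.1 and 20.5 CPM at L2C, and IP levels were 39.2, 43.2 and 35.6 CPM and 27.6, 22.3 and 26.1 CPM. The input fell further than the IP, giving an interaction of 1.90 (SE 0.18, edgeR adjusted p = 3.7e-06). Jak2, the tyrosine kinase of cytokine receptors, had inputs of 68.6, 51.2 and 49.4 CPM at L1C and 32.9, 31.9 and 33.1 CPM at L2C. Its IP levels moved the opposite way, from 69.4, 73.6 and 64.3 CPM to 144, 130 and 150 CPM, with no overlap, so that log2 enrichment was 0.29 at L1C and 2.11 at L2C (interaction 1.82, SE 0.18, edgeR adjusted p = 8.1e-06).

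Ogt, the X-linked enzyme that adds O-GlcNAc to proteins, showed no separation of stages in the input, at 73.8, 62.1 and 57 CPM at L1C and 71.2, 60.5 and 79.1 CPM at L2C. Its IP levels were 25.8, 26.6 and 22.0 CPM at L1C and 83.7, 80.8 and 85.5 CPM at L2C. The stages overlapped in the input and not in the IP, and the change of the ratio (1.62, SE 0.19, edgeR adjusted p = 6.8e-05) was on the IP side. Vps8, a subunit of the endosomal CORVET tethering complex, had the same form, with inputs of 44.9, 38.4 and 40.4 CPM and 39.8, 40.2 and 43.3 CPM and IP levels of 16.0, 13.8 and 14.2 CPM and 39.9, 32.5 and 38.8 CPM.

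The other 5 of the 10 were Strn, a scaffold of the STRIPAK phosphatase complex (interaction 1.41), Grb10, an imprinted adaptor of the insulin receptor (1.62), Prickle1, a planar cell polarity protein (1.30), Sec31a of the COPII vesicle coat (1.15) and Parp12, an ADP-ribosyltransferase (1.08). Grb10 remained depleted at L2C (log2 -0.63 after -2.24 at L1C), whereas Strn and Parp12 passed from no call at L1C (-0.20 and 0.02) to enrichment at L2C (1.21 and 1.10). In all 10, which were chosen by P on the same libraries, the 3 L2C ratios lay above the 3 L1C ratios.

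Among the mRNAs less enriched at L2C, each of the 10 with the smallest P had a higher input at L2C. Gata1, a zinc finger transcription factor best known from erythroid cells, had inputs of 4.79, 4.96 and 5.27 CPM at L1C and 170, 219 and 173 CPM at L2C. Its IP levels were 15.8, 12.9 and 11.3 CPM at L1C and 97.8, 75.9 and 91.2 CPM at L2C. IP exceeded input in every L1C library and fell below it in every L2C library, an interaction of -2.49 (SE 0.26, edgeR adjusted p = 1.4e-05).

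Surf6, Ftsj3 and Nop2 encode nucleolar proteins of ribosome assembly, the last 2 being RNA methyltransferases. Surf6 had inputs of 12.0, 17.4 and 16.8 CPM at L1C and 246, 299 and 254 CPM at L2C, and IP levels of 17.6, 15.9 and 20.2 CPM and 98.6, 91.7 and 94.4 CPM. Nop2 had inputs of 4.07, 4.64 and 5.33 CPM and 709, 793 and 728 CPM, and IP levels of 3.42, 3.79 and 3.83 CPM and 215, 202 and 204 CPM. In both genes the IP increased, but by less than the input, and the interactions were -1.71 (SE 0.19) and -1.51 (SE 0.21). Ftsj3 differed in that its IP decreased, from 94.6, 82.4 and 88.2 CPM at L1C to 49.4, 61.6 and 54.6 CPM at L2C, while the input was 86.1, 85.6 and 94.2 CPM and then 110, 125 and 120 CPM. Its interaction was -1.10 (SE 0.15, edgeR adjusted p = 0.00018).

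Socs3, an inhibitor of cytokine signalling through Jak kinases, had inputs of 9.40, 13.0 and 12.9 CPM at L1C and 462, 538 and 500 CPM at L2C. It was depleted by the IP at both stages and more so at L2C (log2 -1.25 and -3.54), an interaction of -2.29. The remaining mRNAs of this group were Flvcr2, a membrane transporter (-2.08), Tbc1d10b, a GTPase-activating protein for Rab proteins (-2.03), Sh3bp5l (-2.18), Ccdc85c (-1.49) and Cnnm2, a protein of magnesium transport (-1.12). Ccdc85c was the member that went from enrichment at L1C (1.54) to no difference between IP and input at L2C (0.05). All 3 L2C ratios lay below all 3 L1C ratios in each of these 10 mRNAs, which were also chosen by P on the same libraries.

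**Figure D2:**
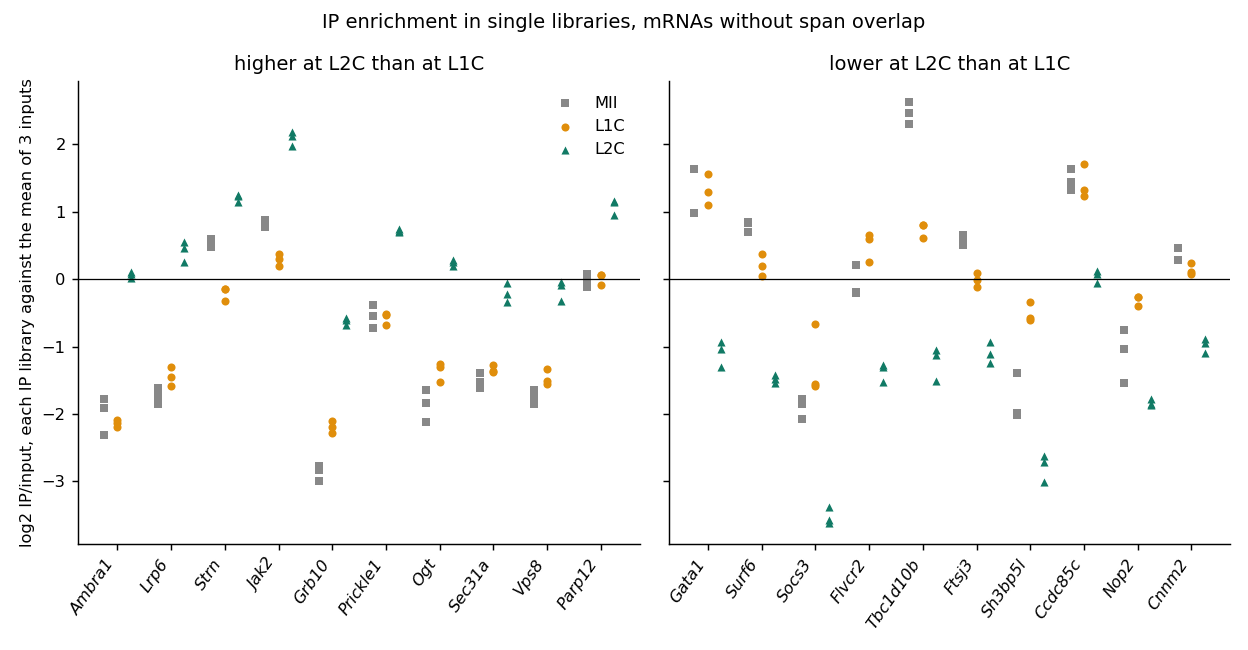
The log2 ratio of each IP library to the mean of the 3 inputs of its stage (y axis) is plotted for the 10 mRNAs without span overlap with the smallest P in each direction (x axis), with MII oocytes in grey, L1C in orange and L2C in green. In all 20 genes the 3 L2C points lie apart from the 3 L1C points, as in Ambra1, where L1C lies at -2.20 to -2.09 and L2C at 0.01 to 0.10.

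Over the whole called sets, the side of the ratio that moved can be described from the same fit, which shares its libraries with the interaction and is therefore no separate evidence. Of the 363 mRNAs more enriched at L2C, the input was called lower at L2C in 272 (74.9%, against 41.2% of all tested mRNAs without span overlap) and higher in 57 (15.7%, against 40.9%). In 180 of them input and IP were both lower (49.6%, against 36.3% of all tested, with the IP lower in 39.7% of all tested). In 70 the input was lower with no call in the IP (19.3% against 4.57%), in 34 the IP was higher with no call in the input (9.37% against 3.18%), and in 22 the input was lower and the IP higher (6.06% against 0.287%). The median input change of the set was -1.53 and the median IP change -0.38. The most common form was thus the Lrp6 form, a loss in input that was larger than the loss in IP.

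The less enriched set was its counterpart. Of the 404 mRNAs, the input was called higher at L2C in 299 (74.0%) and lower in 70. Input and IP were both higher in 235, as in Gata1, Surf6 and Nop2 (58.2%, against 36.8% of all tested). The input was higher with no call in the IP in 47 (11.6% against 3.86%), and the IP was lower with no call in the input in 35 (8.66% against 3.13%). The median input change was 2.12 and the median IP change 0.98. In bulk libraries, fewer embryos carrying an RNA and less RNA per embryo cannot be told apart.

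Enrichment at each stage describes where the called mRNAs came from and went to. It comes from the fit that chose the sets and is therefore no separate evidence. Of the more enriched set, 212 were depleted by the IP at L1C (58.4%; 20.3% of all tested) and 174 were enriched at L2C (47.9%; 20.5% of all tested). Depletion at both stages was seen in 68 (18.7%, near the 14.8% of all tested), a passage from depletion to enrichment in 27 (7.44% against 0.352%) and from no call to enrichment in 125 (34.4% against 9.97%). Of the less enriched set, 315 were depleted at L2C (78.0%; 26.2% of all tested): 195 of these had no call at L1C (48.3% of the set, against 11.0% of all tested), 95 were depleted already (23.5% against 14.8%) and 25 had been enriched at L1C (6.19% against 0.326%). A further 74 went from enrichment to no call (18.3% against 5.47%), and 13 were enriched at both stages (3.22% against 10.2%). The 27 and the 25 that passed between depletion and enrichment were all of the tested mRNAs that did so.

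MII oocytes, whose libraries the contrast does not use, gave a readout of the same mRNAs in another sample, although they shared the fit. The more enriched set had a median log2 enrichment of -0.63 in MII oocytes, -0.70 at L1C and 0.41 at L2C, and 211 of the 363 were depleted in MII (58.1%; 23.4% of all tested). The single MII IP libraries had medians of -0.57, -0.62 and -0.61. The less enriched set had medians of -0.06, 0.10 and -1.11 at the 3 stages. All tested mRNAs without span overlap had medians of 0.00, 0.02 and -0.01. For both sets the MII level lay near the L1C level and away from the L2C level.

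**Figure D3:**
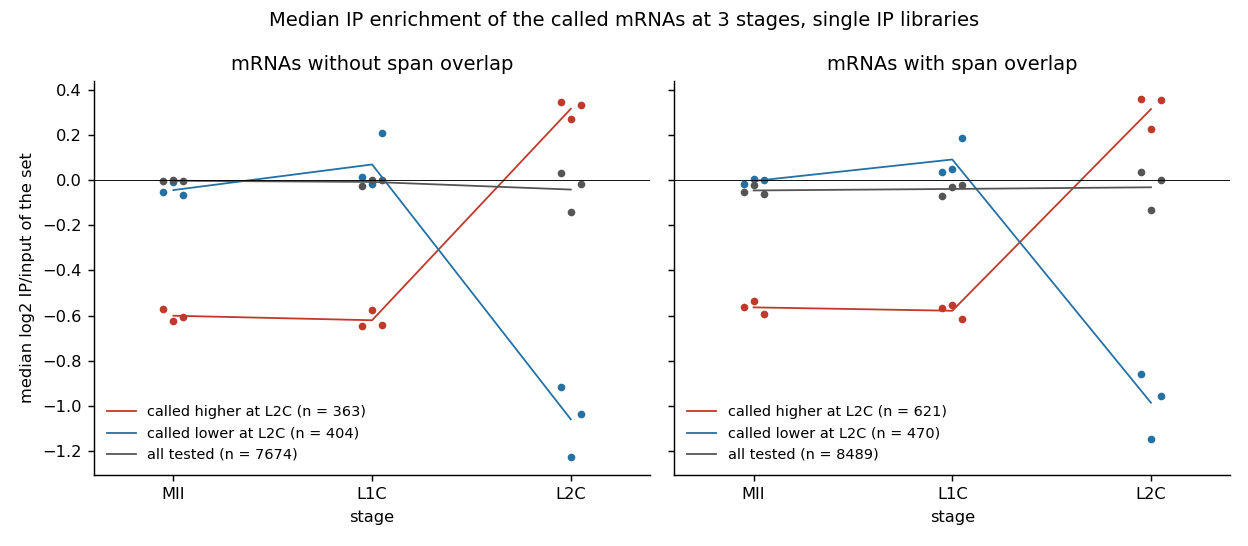
The median log2 ratio of IP to input of a set (y axis) is shown for each of the 3 IP libraries per stage (points, against the mean of that stage's inputs) with lines through the means, for mRNAs called higher (red), called lower (blue) and all tested (grey). In mRNAs without span overlap (left) the red set lay at -0.65 to -0.58 in L1C and 0.27 to 0.35 in L2C, and the blue set at -1.23 to -0.91 in L2C, and mRNAs with span overlap (right) gave the same picture.

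mRNAs were classed by when their RNA is present, using only libraries outside the contrast: MII inputs and the NC embryos. Stored and present mRNAs (at least 5 CPM in both) held the largest number of calls, with 217 of 2789 higher (7.78%) and 193 lower (6.92%). Of 266 maternal only mRNAs (at least 5 CPM in MII, under 1 CPM in NC) 23 were higher (8.65%) and 12 lower (4.51%). Zygotic only mRNAs (under 1 CPM in MII, at least 5 CPM in NC), whose median input change was 4.22, had 6 of 631 called higher (0.951%) and 37 lower (5.86%), with a median interaction of -0.16. Their share of lower calls was near the 5.26% of all mRNAs without span overlap, while the share of higher calls was below the 4.73%.

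Input levels of the zygotic only class were low at L1C (median 0.693 CPM), which limits what could be called. Restricted to the 357 of its members with a mean of at least 10 counts per library in each of the 4 groups, 5 were higher and 24 lower, against 316 and 351 of the 5812 mRNAs without span overlap that meet the same minimum. With offsets for GC content and span length (described below) the class had 15 higher and 31 lower calls and a median of -0.02. Thresholds of 10 and 0.5 CPM in place of 5 and 1 gave 2 higher and 16 lower of 332. The class had 18 lower calls without L1C IP 3, 19 without L2C IP 3, 23 without L2C input 2 and 24 without L1C input 1, and 3 higher calls without L2C input 2 or L2C IP 3. Over those 357 the median interaction was -0.08. The single-library medians of the class did not fall, at 0.06, 0.17 and 0.17 for L1C and 0.25, 0.14 and 0.17 for L2C.

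Ribosome biogenesis and RNA polymerase I was the list of at least 20 tested genes with the largest share of members called in 1 direction. None of its 58 tested members were more enriched at L2C and 14 were less enriched (24.1%, against 5.41% of all tested mRNAs), with a median interaction of -0.32 (0.00 over all genes tested). They include Nop2, Nol12 and Ubtf, the DNA-binding factor of RNA polymerase I, and also Bop1 (-1.10) and Pes1 (-0.69), partners in maturation of the large subunit with span overlap that were named after their values were seen. Ubtf rose in the input from 9.74, 12.8 and 10.6 CPM at L1C to 324, 385 and 339 CPM at L2C and in the IP from 7.60, 7.12 and 9.05 CPM to 134, 150 and 137 CPM, so that both rose, the input by more (interaction -0.84, SE 0.18, edgeR adjusted p = 0.0062). Nol12, a nucleolar RNA-binding protein, went from mild enrichment (0.66) to mild depletion (-0.36). The median input change of the list was 2.43.

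Counted without span overlap, 7 of 31 ribosome biogenesis mRNAs were lower and 0 higher. An unadjusted P under 0.05 was reached by 1 member upward and 25 downward, and DESeq2 called 0 and 20. Leaving out single libraries gave 6 to 13 lower calls (6 without L1C IP 3 or L2C IP 3, 7 without L1C IP 1 or L2C input 3, 8 without L2C input 1 or 2, 9 without L1C input 1), and offsets for GC gave 10 lower and 1 higher, with Ubtf among those lost. Surf6 and Ftsj3 were not on the list.

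In the account of lists, a gene that rose or fell did so in its log2 ratio of IP to input, by the interaction given. Lists of the translation machinery and of energy metabolism had negative medians and smaller shares of higher calls than the 6.09% of all mRNAs. Of 82 nuclear-encoded mRNAs of oxidative phosphorylation, 7 were lower (8.54%, against 5.41% of all mRNAs) and 0 higher (median -0.31), including Cox8a (-1.20) and Ndufa13 (-1.07), subunits of complex IV and complex I. Ndufa13, which has span overlap, was not called with offsets for GC (-0.53, edgeR adjusted p = 0.088). Cox8a had log2 enrichment of 1.53 at L1C and 0.33 at L2C. The number of lower calls ranged from 3 to 8 when single libraries were dropped, with 3 without L1C input 1, L1C IP 3, L2C input 2, L2C input 3 or L2C IP 3 and 4 without L2C input 1 or L2C IP 1. Of 55 translation initiation factors, 6 were lower (10.9%) and 1 higher (1.82%), with a median of -0.16: Eif4h, an RNA helicase cofactor, fell by 1.35, Eif3c, with span overlap, by 0.82 and Eif2s3x by 0.97, while Eif2ak4, the kinase that senses amino acid shortage, rose by 0.79, a call lost in the fit of 12 libraries. Of the initiation factors 3 were lower without L1C input 1, L1C IP 3, L2C input 2 or L2C IP 3, and 4 without L1C IP 1 or L2C input 3. Cytosolic ribosomal proteins had a median of -0.40 but 2 calls of 82, Rpl37a and Rpl8, both lower (0 without L1C input 1, L1C IP 3, L2C input 3 or L2C IP 3, and 4 without L1C IP 2, and Rpl8 not called with offsets for GC). Replication-dependent histones had the most negative median of the lists (-0.68) and 2 calls of the 42 tested of 67 (Hist1h4i and Hist1h2ac, the latter with span overlap, both lower, with 0 calls without L1C input 3 or L1C IP 1). For both lists the share of calls was below the 5.41% of all mRNAs, and the medians of single IP libraries overlapped between stages. They were 0.24, 0.15 and 0.60 at L1C and 0.09, 0.46 and -0.09 at L2C for ribosomal proteins, and 0.10, 0.25 and 0.87 at L1C and 0.32, 0.13 and -0.01 at L2C for histones, with L1C IP 3 the highest in each. Median L1C inputs were low, at 0.746 and 0.745 CPM, where the pseudocount of 0.5 CPM draws single-library ratios toward 0. Members with a mean of at least 10 counts per library in each of the 4 groups had fitted medians of -0.375 (51 ribosomal proteins) and -0.635 (22 histones), with 1 lower and 0 higher calls in each list. The proteasome had 3 lower calls of 48 (6.25%, near the share of all mRNAs) and a median of -0.25.

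Regulators of RNA and chromatin were mixed. mRNA decay and poly(A) control had 4 higher and 4 lower calls of 57, 7.02% each and near the 6.09% and 5.41% of all mRNAs: Cpeb3, which binds 3' UTRs, rose by 1.37, Parn, a poly(A) nuclease, by 0.75 and Xrn1, the main 5' to 3' exonuclease, by 0.75, whereas Pabpn1, the nuclear poly(A) binding protein, fell by 1.08, Tent4b, a poly(A) polymerase, by 1.12 and Cnot1, the scaffold of the CCR4-NOT deadenylase, by 0.57. Chromatin regulators had 5 higher and 6 lower calls of 66 (7.58% and 9.09%). Kdm6a, an X-linked H3K27 demethylase, rose by 1.14, Ehmt1, an H3K9 methyltransferase, by 0.79 and Cbx5, the heterochromatin protein HP1 alpha, by 0.85. Trim28, a co-repressor of zinc finger proteins, fell by 1.49 and Chaf1b, a chromatin assembly factor subunit, by 0.89. Zinc finger genes named Zfp had 21 higher and 19 lower calls of 334 (6.29% and 5.69%), close to the shares of all mRNAs, with a median of 0.15 (-0.04 in the fit of 12 libraries, where the median of all genes was -0.18). Of the genes named here, Cpeb3, Xrn1, Pabpn1, Cnot1, Ehmt1, Trim28 and Chaf1b have span overlap. The Xrn1 and Cnot1 calls were each lost without 4 of the 12 libraries taken singly, and the Xrn1 and Cbx5 calls in the fit of 12 libraries. The Xrn1 call was also lost with offsets for GC and span.

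Cell cycle genes had 3 higher (Anapc1, Anapc4 and Kif11) and 7 lower calls of 74 (4.05% and 9.46%, against 6.09% and 5.41% of all mRNAs), among the lower ones Mos, the kinase that holds MII arrest (-1.36), Plk1, a mitotic kinase (-0.76), and Tacc3, a spindle protein (-1.06). Taking out libraries singly, the call was lost for Anapc1 without 7 of the 12, for Anapc4 without 8, for Kif11 without 10 and for Plk1 without 6, and Kif11, Plk1 and Tacc3 have span overlap. The calls of Anapc1, Anapc4 and Kif11 were also lost in the fit of 12 libraries. Of 37 early embryo transcription factors 4 were lower (10.8%), Esrrb (-0.94), Rarg (-1.12), Zfp42 (-1.19) and, named after its value was seen, Mycn (-1.86), and 1 was higher (2.7%), Yy1 (1.14). The Rarg call was lost with offsets for GC (-0.68) and without 6 of the 12 libraries, the Zfp42 call without 8 and the Yy1 call without 5. The Yy1 call was also lost in the fit of 12 libraries. Splicing factors had 2 higher and 3 lower calls of 68 (2.94% and 4.41%), among which Prpf8, the core of the spliceosome, fell by 0.88 and was enriched at both stages (1.78 and 0.89). Oocyte genes had 2 calls in each direction of 44 (4.55% each): besides Mos, Zar1l (-1.11) was lower, and the NLR genes Nlrp4b (1.16) and Nlrp4f (0.72) were higher. The Nlrp4b and Nlrp4f calls were lost without 7 and 9 of the 12 libraries, and both in the fit of 12 libraries. Zar1l and Nlrp4b have span overlap. Of 23 snoRNA hosts and nuclear long ncRNAs, Snhg5 (1.43) and Snhg14 (1.37), both with span overlap, were higher (8.7%, against 1.97% of gene types other than mRNA) and none lower. With offsets for GC and span the Snhg14 call was lost (0.81), as were those of Anapc1 and Kif11, and the list median of 0.13 became -0.04 with offsets for GC.

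Neither 2-cell genes (0 of 32 called by edgeR, median 0.14, and -0.04 in the fit of 12 libraries with all genes at -0.18) nor mRNAs of mitochondrial DNA (0 of 13) had a call in either direction, against 11.5% of all mRNAs. At an unadjusted P under 0.05 there were 2 higher and 2 lower 2-cell genes and none of the 13, and DESeq2 called 1 in each direction among the 2-cell genes and 0 of the 13. The 2-cell list had 1 call without L1C input 2, L1C IP 2, L2C IP 2 or L2C input 2, and the mitochondrial list 1 without L1C input 1. The 2-cell genes rose in the input (median change 1.97) with a median log2 enrichment of 0.16 at L1C and 0.50 at L2C. Of 14 tested cumulus cell markers, Amhr2 was lower (-1.17; 7.14%, against 5.41% of all mRNAs) and none higher, and its call was lost with offsets for GC (-0.71) and without L1C IP 3. Its input rose from 1.79, 2.01 and 2.06 CPM to 235, 249 and 254 CPM while the IP went from 1.20, 1.13 and 1.5 CPM to 84.5, 57 and 76.7 CPM.

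**Figure D4:**
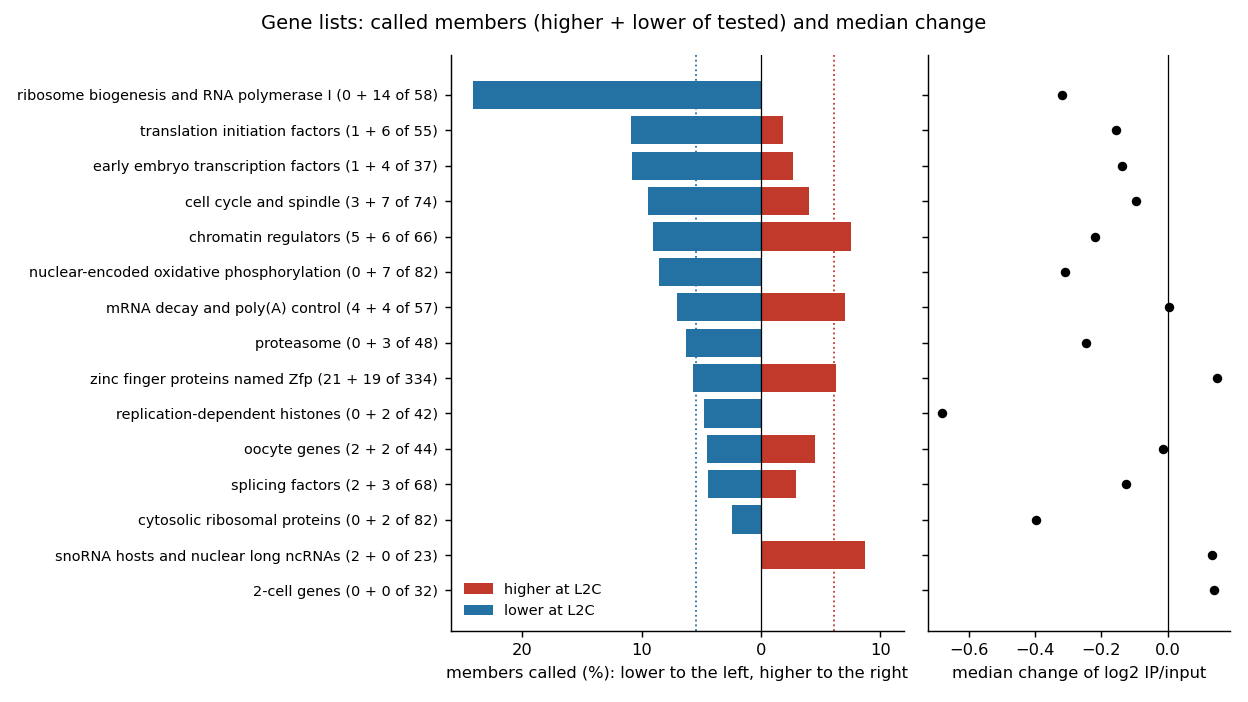
Bars give the share of tested members of each list (y axis) called lower (left, blue) or higher (right, red) at L2C in percent, dotted lines the shares among all tested mRNAs (5.41% and 6.09%), and the right panel the median interaction on the log2 scale. Ribosome biogenesis stands out with 24.1% lower and 0 higher, and its single-library medians lay at -0.12 to -0.09 in L1C and -0.49 to -0.43 in L2C, whereas those of histones, with the most negative fitted median (-0.68), overlapped between stages.

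mRNAs of the m6A machinery were themselves measured. Of 12 writer genes 1 was called in each direction (8.33% each, against 6.09% of all mRNAs higher and 5.41% lower). Rbm15, which guides the complex to RNA, was lower (-0.77, SE 0.20, edgeR adjusted p = 0.020) and Virma, a scaffold of the complex whose span overlaps Gm11831, higher (0.58, SE 0.17, edgeR adjusted p = 0.041). The Rbm15 call was lost without L1C input 1 or L1C IP 3. The Virma call was lost without any of 7 of the 12 libraries, in the fit of 12 libraries and with offsets for GC and span. Rbm15 had inputs of 38.4, 44.7 and 44.0 CPM at L1C and 185, 211 and 203 CPM at L2C, with IP levels of 19.1, 19.6 and 28.1 CPM and 58.7, 64.9 and 61.5 CPM. The catalytic pair did not pass the test, with 0.32 (SE 0.21) for Mettl3 and -0.43 (SE 0.25) for Mettl14, nor did Wtap (-0.61, SE 0.33), Zc3h13 (-0.04, SE 0.15), Cbll1 (0.21, SE 0.21), Mettl16 (-0.34, SE 0.16), Mettl5 (-0.13, SE 0.27), Zcchc4 (0.21, SE 0.21) or Trmt112 (-0.87, SE 0.33). Rbm15b entered the test through the MII IP libraries but was listed at 0 in 11 of the 12 L1C and L2C libraries (1.45 CPM in L1C IP 3), so no ratio is given.

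Of 14 erasers and readers, both erasers and 1 reader were higher at L2C (21.4%, against 6.09% of all mRNAs). Alkbh5 had an interaction of 0.68 (SE 0.19, edgeR adjusted p = 0.027) and Fto, whose span overlaps another gene, 0.90 (SE 0.27, edgeR adjusted p = 0.043). Ythdf3, a cytoplasmic reader, had 0.71 (SE 0.19, edgeR adjusted p = 0.027), with inputs of 545, 519 and 435 CPM at L1C and 132, 99.1 and 113 CPM at L2C and IP levels of 129, 154 and 162 CPM and 55.5, 53.4 and 57.7 CPM. Each of these 3 calls was lost without at least 6 of the 12 libraries taken singly, and with L2C IP 3 or L1C IP 1 left out none remained. The Fto call was lost with offsets for GC and span. The fit of 12 libraries called none of them and 1 other member lower, and the list median went from 0.18 to -0.00 while that of all genes went to -0.18. Ythdc1, the nuclear reader, was enriched at both stages (0.88 and 1.24) with an interaction of 0.36 (SE 0.24), and Ythdf2, the reader linked to decay, was depleted at both (-0.69 and -0.69) with an interaction of 0.00 (SE 0.19). The remaining readers, Ythdf1 (0.51), Ythdc2 (-0.13), Fmr1 (0.66), Hnrnpa2b1 (-0.14), Hnrnpc (0.06), Igf2bp1 (-0.40), Igf2bp2 (0.29), Igf2bp3 (-0.53) and Prrc2a (-0.34), were not called.

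The 5 genes that the study followed after Ythdc1 knockdown were also covered, a list chosen on libraries of this series and so no independent evidence. Camk1d, a calmodulin-dependent kinase whose span overlaps Gm13216, was higher (1.61, SE 0.40, edgeR adjusted p = 0.016), with IP levels of 464, 540 and 1100 CPM at L1C and 1300, 1800 and 825 CPM at L2C, so the stages overlapped in the IP. Its call was lost with offsets for GC and span. The ratios did not overlap, at 0.52, 0.74 and 1.77 against 2.72, 3.19 and 2.06. Its inputs of 336, 325 and 309 CPM at L1C and 185, 180 and 226 CPM at L2C did not overlap. Rab3b, a GTPase of vesicle transport with span overlap, was lower (-0.50, SE 0.15, edgeR adjusted p = 0.045) and lost this call without any of 11 of the 12 libraries. Commd3 (-0.12), Tceal8 (0.54) and Ybx3 (-0.44) were not called.

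Of 8489 mRNAs with span overlap 621 were higher (7.32%) and 470 lower (5.54%), with a median of 0.03. Counting only overlap with another tested gene, 324 of 5017 were higher (6.46%) and 337 lower, with a median of -0.05, against 660 of 11146 higher (5.92%) and 537 lower without such overlap, with a median of 0.02. Since a second gene may supply part of the reads, the calls with the smallest P are given apart, and the called members of lists that have span overlap are marked as such above. Dnmt1, the maintenance DNA methyltransferase, shares its span with Mir7081 and had inputs of 201, 209 and 250 CPM at L1C and 110, 126 and 112 CPM at L2C and IP levels of 298, 255 and 256 CPM and 34.9, 33.8 and 31.5 CPM. Its log2 enrichment was 1.85 in MII oocytes, 0.29 at L1C and -1.80 at L2C (interaction -2.09, SE 0.17, edgeR adjusted p = 5.7e-07), a descent over all 3 stages. Nsmce4a of the SMC5/6 complex, whose span overlaps Fgfr2, and Fxr2, an RNA-binding protein with Mir467f in its span, were also lower (-2.69 and -1.75). Frmpd1 (2.31, overlapping Frmpd1os), Acly, the enzyme that makes cytosolic acetyl-CoA (1.61, with Mir7116 in its span), and Fbxo10 (2.49, overlapping Polr1e) were the 3 higher mRNAs with the smallest P. In Acly the inputs were 136, 138 and 156 CPM at L1C and 133, 151 and 137 CPM at L2C, and the IP levels 26.9, 31.2 and 23.4 CPM and 80.5, 77.6 and 85.5 CPM, so that the change lay in the IP. In the fit of 12 libraries 298 mRNAs with span overlap were higher and 798 lower. Leaving out L2C IP 3 gave 383 and 283, and without L1C input 1, L1C IP 3 or L2C input 3 the lower count was 313, 313 and 309.

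Of 5787 genes of other types, 114 were higher (1.97%) and 107 lower (1.85%), 3.82% in all, against 11.5% of mRNAs, a difference that was not tested between groups of unequal level (median L1C input of 0.657 CPM without span overlap, against 5.16 CPM for mRNAs). Of 1197 lincRNAs without span overlap, 24 were higher and 15 lower, with a median of 0.18. Of 844 processed pseudogenes without span overlap, 3 were higher and 14 lower, and since these resemble their parent genes their reads may be shared with them. Antisense genes with span overlap had 34 higher and 36 lower calls of 1108, and their reads cannot be told from those of the partner gene where strand was not used. Named RNAs were ranked by P only among those without span overlap and with a mean of at least 10 counts per library in each of the 4 groups. Of these, the smallest P were those of Gm33969 (1.77, with IP of 6.05, 6.56 and 5.66 CPM at L1C and 16.7, 14.7 and 16.6 CPM at L2C) and Gm45864 (2.30) among higher, and Gm7104 and Gm11620 (-2.49 and -3.02) among lower, the last 2 with rising inputs (4.31, 6.44 and 5.15 CPM to 125, 135 and 124 CPM for Gm7104).

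Gene structure differed between the called sets, which the choice of genes did not use directly. Level differed from all tested too: the mean CPM of the 6 inputs had medians of 24.8 (more enriched), 33.0 (less enriched) and 9.08 (all tested). In the lowest quartile of this level 1.98% were called higher and 1.25% lower, and in the highest 7.09% and 9.22%. The part of level in the differences below was not tested. Exons of the more enriched mRNAs without span overlap had a median GC content of 46.6% and those of the less enriched 54.1%, against 49.3% over all tested. Median span length was 41800, 12900 and 17600 bases in the same order, exonic length 5810, 3500 and 3460 bases and the number of exons 12, 8 and 8. GGACT was no denser in the more enriched set, at 0.96 per kb of exon against 1.15 and 1.01, and its reverse complement AGTCC followed the same order (0.834, 0.994 and 0.87).

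Across quartiles of exon GC of the tested mRNAs without span overlap, the share called higher went from 6.39% in the lowest to 1.78% in the highest and the share called lower from 0.629% to 10.6%. The median interaction fell from 0.22 to -0.40. Across quartiles of span length, the share called higher went from 1.67% in the shortest (under 7680 bases) to 10.1% in the longest (over 37300 bases) and the share called lower from 6.31% to 2.66%. The part of base composition and length in the calls was examined, after the data were seen, with offsets that remove a smooth trend of each library with exon GC. With them 120, 127, 148 and 131 mRNAs were called higher and 76, 118, 142 and 149 lower in the 4 GC quartiles, while span quartiles had 50, 73, 157 and 249 higher against 108, 166, 127 and 84 lower calls. Offsets for span length as well gave 80, 101, 168 and 180 higher and 58, 95, 114 and 123 lower. Of the 363 and 404 mRNAs called without offsets, 339 and 333 were called in the same direction with offsets for GC and 314 and 264 with both.

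**Figure D5:**
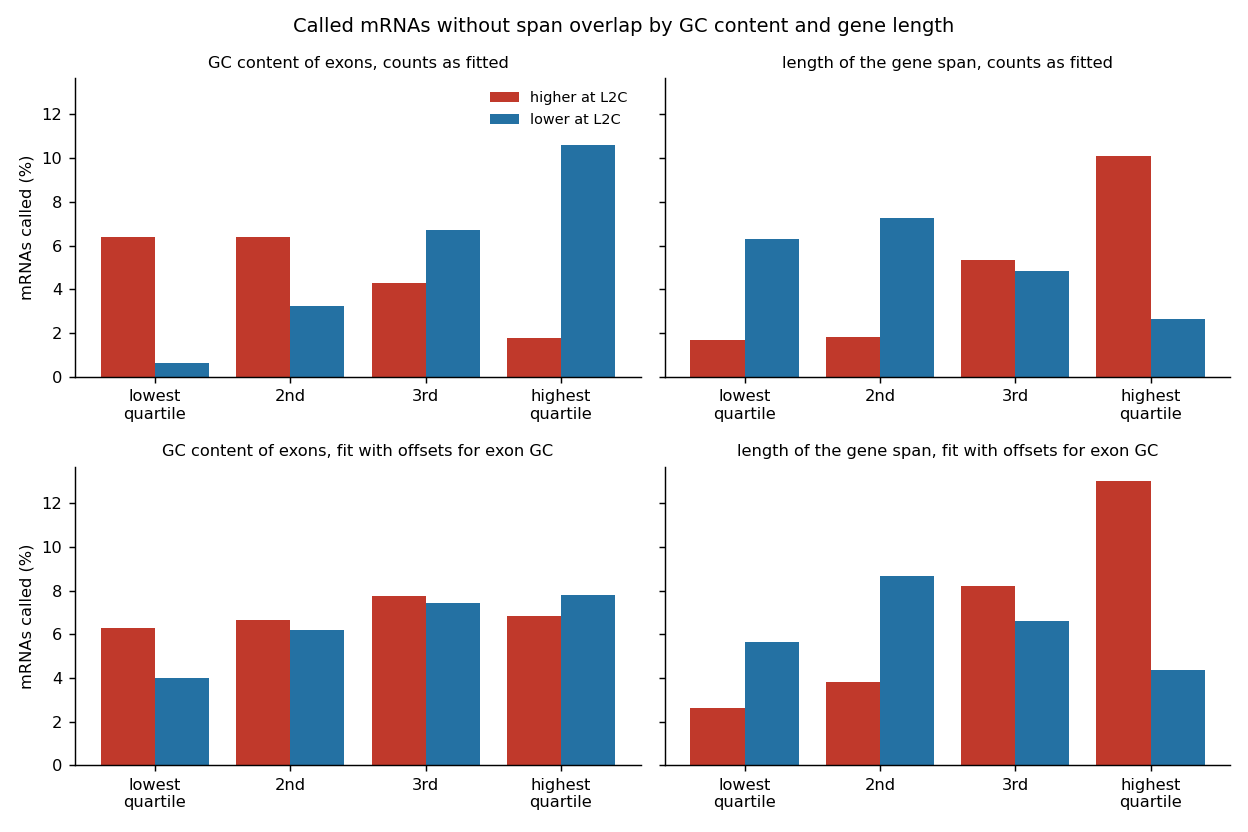
Bars give the share of tested mRNAs without span overlap called higher (red) or lower (blue) at L2C in percent (y axis) by quartile (x axis) of exon GC content (left) and span length (right), with counts as fitted (top) and with offsets for exon GC (bottom). The difference of 0.629% to 10.6% in lower calls across GC quartiles narrows to 3.98% to 7.81% with the offsets, which remove a GC trend by construction, whereas the longest quartile still has 13.0% higher calls.

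The Ythdc1 knockdown gave a readout of the called mRNAs in other embryos at L2C. Ythdc1 itself was at 498, 521 and 493 CPM in KD and 1110, 1140 and 1050 CPM in NC libraries (log2 -1.0, SE 0.06, edgeR adjusted p = 1.3e-10). The merged count table, the source of KD counts used here, ends on chromosome 7 (NC levels for the RNA classes came from NC files covering all chromosomes), so 126 of the 363 and 131 of the 404 mRNAs were tested there. Of the more enriched set, 41 rose (32.5%) and 43 fell (34.1%) in KD, with a median log2 change of 0.02. Of the less enriched set, 59 rose (45.0%) and 39 fell (29.8%), with a median of 0.23. Over the 2588 tested mRNAs without span overlap, 36.8% rose and 37.2% fell (median -0.02), and over all 7433 genes tested 33.5% and 37.4%. Leaving out each of the 6 libraries in turn gave 56 to 63 rising and 33 to 41 falling mRNAs of the less enriched set, and 35 to 46 and 40 to 47 of the more enriched set. The difference between the sets was not tested.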

How the data were processed

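Oocytes and embryos were profiled by SLIM-seq, an m6A RNA immunoprecipitation for small amounts of RNA, with an antibody on protein A beads. The sources differ on the library kit: the labels name a stranded kit and the methods a Smart-seq2 protocol, so use of strand is unknown. The authors trimmed reads and deposited kallisto estimated counts per gene on whole gene spans of GRCm38 (55471 genes). They also deposited TPM values, which were not tested. For the knockdown, the authors deposited raw counts from HISAT2 and featureCounts 2.0.1 over exons. The kallisto version is not given in the sources used here.

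Estimated counts were rounded and fitted with edgeR 4.0.16 (R 4.3.3; quasi-likelihood test, TMM, filterByExpr) over 18 libraries of 3 stages, with 12 residual degrees of freedom. The MII libraries add to the estimate of spread. Adjusted p-values are Benjamini-Hochberg over 21950 genes with a threshold of 0.05. CPM values use TMM-scaled library sizes, with exceptions that use library totals alone. These are the marker sums, the MII and NC levels that define RNA classes, and the Ythdc1 levels in KD and NC. Single-library ratios set each IP library against the mean of 3 inputs with a pseudocount of 0.5 CPM, which understates changes of low genes. Spans came from the kallisto targets (54900 of 55471 equal to GENCODE M21), exons from the Ensembl annotation in the deposited featureCounts files, and gene types and coding sequences from GENCODE M21. DESeq2 1.42.0 was an alternative. On simulated counts with 200 changed genes, the edgeR interaction found 27 of 100 at a log2 change of 1 and 67 of 100 at 2, with 2 false calls among 20937 genes.

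Named genes had a mean of at least 10 counts per library in each of 4 groups and an adjusted p under 0.05: the 10 mRNAs without span overlap per direction with the smallest P, 3 with span overlap, 2 of other types without span overlap, and up to 3 called members per list and direction. Every gene of the m6A and knockdown follow-up lists was named without these limits. Rpl37a and Hist1h4i, named as calls of their lists, fell below the minimum of counts. The comparison, lists and rules were chosen with earlier results of these data known. Alternatives were another scaling, filter, library set, tool, replicate block, offsets for GC and span, and leaving out each library.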

Additional observations from a re-analysis of the deposited data

Results flagged for a closer look

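The results below stood out because the difference between the 2 stages was itself tested, as the interaction of stage with IP (edgeR). The counts were 363 mRNAs without span overlap called higher at L2C and 404 lower, and 621 with span overlap called higher and 470 lower. Among mRNAs without span overlap the interactions on the log2 scale were 2.22 for Ambra1, 1.90 for Lrp6, 1.41 for Strn, 1.82 for Jak2, 1.62 for Grb10, 1.30 for Prickle1, 1.62 for Ogt, 1.15 for Sec31a, 1.35 for Vps8 and 1.08 for Parp12. In the other direction they were -2.49 for Gata1, -1.71 for Surf6, -2.29 for Socs3, -2.08 for Flvcr2, -2.03 for Tbc1d10b, -1.10 for Ftsj3, -2.18 for Sh3bp5l, -1.49 for Ccdc85c, -1.51 for Nop2 and -1.12 for Cnnm2. With span overlap they were 2.31 for Frmpd1, 1.61 for Acly, 2.49 for Fbxo10, -2.69 for Nsmce4a, -2.09 for Dnmt1 and -1.75 for Fxr2. Among other gene types they were 1.77 for Gm33969, 2.30 for Gm45864, -2.49 for Gm7104 and -3.02 for Gm11620.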

How the results depend on the processing

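Of 88 called named genes, 42 were called under every alternative, 64 without each single library in turn, and 0 reversed. Counts are given as higher and lower, first without and then with span overlap, and where a cause is not plain from the setting it was not tested. The 12 libraries alone gave 179 and 698, then 298 and 798. DESeq2 gave 421 and 710, then 740 and 814. A log2 change over 1 gave 180 and 233, then 292 and 264, and an unadjusted P under 0.05 gave 885 and 1071, then 1345 and 1145. Counting only overlap with another tested gene gave 660 and 537 of 11146, then 324 and 337 of 5017. Without single libraries the counts were 221 to 366 and 240 to 434, then 383 to 659 and 283 to 483. Same-numbered IP and input libraries did not deviate together (r from -0.154 to 0.0855), so the numbers do not pair them. A replicate block gave 71 and 282, then 119 and 351. Chosen after seeing the data, the block with the median interaction set to 0 gave 116 and 94, then 193 and 131. The block with offsets for GC, also chosen then, gave 252 and 233, then 420 and 283. Of calls made, the share higher was 47.3% and 56.9%. It was 20.4% and 27.2% with the 12 libraries alone and 37.2% and 47.6% with DESeq2. With DESeq2 size factors in edgeR it was 37.8% and 47.7%, and with the block 20.1% and 25.3%. With the median interaction set to 0 it was 53.9% and 63.9%, and with offsets for GC and span 57.6% and 52.4%. A fit on mRNAs without span overlap alone gave 60.0%.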
